A study of Mus musculus with 26 samples.

Results

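The genes described here are 8 genes of the MHC class II pathway, Ciita, Cd74, H2-Aa, H2-Ab1, H2-Eb1, H2-DMa, H2-DMb1 and Ctss, chosen by name from the 55391 gene symbols of the deposited table, where all 8 were found. RNA was sequenced from EA1, EA2 and EA3, cell lines grown from lung tumors of C57BL/6 mice that carry the Eml4-Alk fusion made by Cas9 editing. The mice did not all share 1 genotype, and line and host genotype cannot be told apart. Each line was cultured alone in serum-containing medium with 100 nM alectinib, an ALK inhibitor, or with 0.1% DMSO as its solvent control, with 1 library for each line and treatment on each of days 1, 2, 3 and 5. These are 24 libraries with 5780062 to 11732401 counts each (median 9252878), and the 4 days of a line and treatment served as its replicates. No interferon was among the stated treatments.

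MHC class II molecules are heterodimers of an alpha and a beta chain that present peptides to CD4+ T cells. The chains assemble in the endoplasmic reticulum with the invariant chain CD74, which fills the groove and directs the complex to endosomes. There proteases such as cathepsin S trim CD74 to the fragment CLIP, and the H2-DM dimer exchanges CLIP for peptide. CIITA is the coactivator that switches on the genes of the class II chains, CD74 and H2-DM. It binds no DNA itself and docks onto RFX, CREB and NF-Y proteins at a shared promoter module, and in non-immune cells its own gene is typically switched on by interferon gamma through the receptor-bound kinases JAK1 and JAK2. Alveolar type 2 cells of the lung, the cells from which many lung adenocarcinomas arise, are known to carry class II in the normal lung.

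The shared promoter module is shown for the class II chain genes H2-Aa and H2-Eb1. RefSeq windows of 250 bases before to 50 bases after a start (GRCm38.p6) were available for 5 members, with 6 windows in all, since H2-DMa has 2 starts. No window was available for Ciita, Cd74 and H2-Ab1, so these were not searched. Each was searched on both strands for the letters GNAAC, the core of the X box bound by RFX, followed on the same strand by ATTGG, the Y box bound by NF-Y, beginning 25 to 40 bases further on. The pair was present in the windows of H2-Aa, H2-Eb1 and H2-DMb1, and in 872 of the 32544 windows of all genes (2.7%). The letters ATTGG alone, which are part of the pair, occur on either strand in 37.4% of all windows. The stretches of the alpha and beta chain genes are printed 5′ to 3′ in the direction of the gene, with the X core and the Y box in capitals.
H2-Aa, chr17:34287855-34287916, minus strand: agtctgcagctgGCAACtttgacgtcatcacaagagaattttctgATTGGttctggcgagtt
H2-Eb1, chr17:34305764-34305824, plus strand: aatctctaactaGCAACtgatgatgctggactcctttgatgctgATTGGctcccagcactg
In H2-Aa the X core began 81 bases and the Y box 48 bases upstream of the start, and in H2-Eb1 they began 91 and 59 bases upstream. In H2-DMb1 the spacing from X core to Y box was 33 bases, as in H2-Aa. Neither window of H2-DMa nor that of Ctss held the pair, which says only that these letters are not in these windows.

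The members were at or near the limit of detection in all 3 lines. The floor was set at 3 counts, which is 0.256 to 0.519 CPM (counts scaled to a library of a fixed size) depending on the library. Elsewhere CPM are computed with TMM scaling in edgeR. The exceptions are summed marker levels, the bound for genes at 0 and values stated as library size alone, which use library totals. Of the 192 member values in the 24 libraries, 153 were at or under this floor (79.7%), 112 of them were 0, and 39 were over it. The 8 genes together received 564 counts of 221105598. Counts cover counting error only, since the reads carry no molecular identifiers. Of 9 epithelial markers, Krt8, Krt18, Krt19 and Cdh1 were over the floor in all 24 libraries, whereas Epcam and Cldn3 were at or under it in 8, Cldn4 in 15, Cldn7 in 16 and Krt7 in 3. Epcam was at 0 in all EA2 alectinib libraries.

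**Figure D1:**
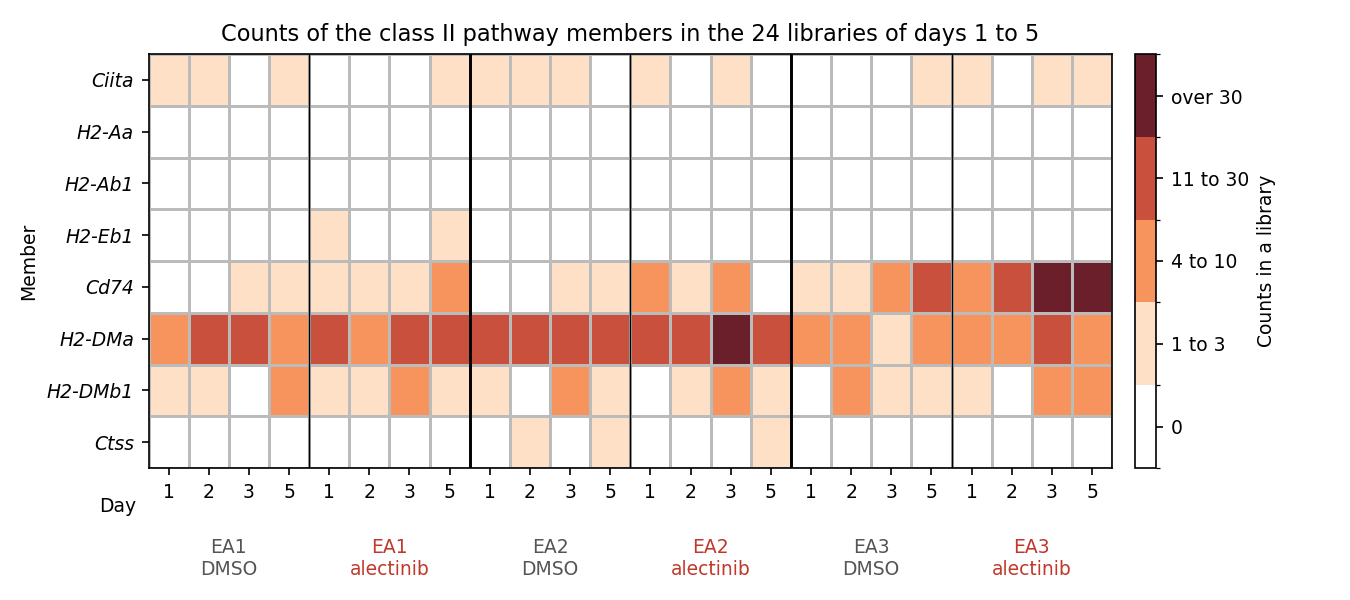
Counts of the 8 members (rows) in the 24 libraries of days 1 to 5 (columns, grouped by line and treatment), colored by count class. H2-Aa and H2-Ab1 are at 0 throughout, Ciita, H2-Eb1 and Ctss never exceed 3 counts, H2-DMa is present in every library, and the highest Cd74 counts, 42 and 47, are in the EA3 alectinib libraries of days 3 and 5.

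Ciita, the coactivator gene, is on chromosome 16 from 10480059 to 10528418 (mm10, GENCODE M21). It had 20 counts in all, at most 3 in any library, and 0 in 11 libraries. On days 1, 2, 3 and 5 EA1 had 1, 1, 0 and 1 counts in DMSO and 0, 0, 0 and 1 in alectinib. EA2 had 3, 3, 1 and 0 counts in DMSO and 2, 0, 1 and 0 in alectinib, and EA3 had 0, 0, 0 and 1 in DMSO and 1, 0, 1 and 3 in alectinib. No library rose over the floor, so no ratio of alectinib to DMSO was formed and a difference was not detectable at this depth. With so few counts, overlap matters, and 3.5% of the exon bases of Ciita are shared with Dexi on the other strand.

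The genes of the class II chains themselves were silent or nearly so. H2-Aa, the alpha chain of the I-A molecule, and H2-Ab1, its beta chain, had 0 counts in each of the 24 libraries, which allows at most 0.0136 CPM over all of them. H2-Eb1, the beta chain of the I-E molecule, had 1 count in EA1 with alectinib on day 1 and 1 on day 5, and 0 in the other 22 libraries. H2-Aa lies on chromosome 17 from 34282744 to 34287823, H2-Ab1 from 34257689 to 34269419 and H2-Eb1 from 34305867 to 34316674. Of the 5 further chain and accessory genes found in the table, H2-Eb2, H2-DMb2 and H2-Ob were at 0 throughout, H2-Ea-ps had 2 counts and H2-Oa had 4. C57BL/6 mice are known to lack a working I-E alpha gene.

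Ctss, the gene of cathepsin S, lies on chromosome 3 from 95526786 to 95556403. It had 3 counts in all, 1 each in EA2 with DMSO on days 2 and 5 and with alectinib on day 5. The line EA2 therefore held all of its counts, and none was over the floor. Other lysosomal proteases were abundant in the same libraries. Per kilobase of exon, Ctsl had a median of 91.4 CPM over the 24 libraries, Ctsd 133.4 and Ctsb 76.5, while the highest level of Ctss on the same scale was 0.108 CPM.

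H2-DMb1, the beta chain of the peptide-exchange dimer, lies on chromosome 17 from 34153072 to 34160230 and had 63 counts in all. On days 1, 2, 3 and 5 EA1 had 1, 1, 0 and 6 counts of it in DMSO and 2, 2, 6 and 3 in alectinib. EA2 had 2, 0, 5 and 2 counts in DMSO and 0, 1, 5 and 1 in alectinib, and EA3 had 0, 6, 1 and 3 in DMSO and 1, 0, 7 and 8 in alectinib. The treatments overlapped in each line. Only 7 libraries were over the floor, and the gene did not pass the filter on low counts. On day 3 in EA3 the ratio of alectinib to DMSO was 4.91 from 7 and 1 counts, with a 95% counting interval of 0.630 to 221.0. On day 2 in the same line the DMSO library had 6 counts and the alectinib library 0. Setting alectinib at the floor gives a bound of 0.454, which leaves out the counting error of the DMSO library. The counts of the 2 days went opposite ways, but at such low counts no difference is shown on either day.

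H2-DMa, the alpha chain of the same dimer, was the one member with counts in every library. It lies on chromosome 17 from 34119541 to 34139101, had 298 counts in all (median 13 per library) and was over the floor in 23 of 24. Its exons share 10.4% of their bases with Brd2 on the other strand, which had 1819 to 4846 counts per library, and it is unknown whether the authors counted by strand, which leaves the values of H2-DMa uncertain. In EA1 the DMSO levels on days 1, 2, 3 and 5 were 0.751, 1.48, 1.46 and 1.27 CPM, and the alectinib levels were 1.25, 0.994, 1.42 and 1.08 CPM. The groups overlapped, and alectinib was higher on 1 of 4 days.

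In EA2 the DMSO levels of H2-DMa were 1.35, 1.90, 1.30 and 1.34 CPM and the alectinib levels 2.19, 2.25, 3.44 and 2.22 CPM. Every alectinib library lay above every DMSO library of that line. The daily ratios were 1.62, 1.19, 2.64 and 1.66, and only that of day 3 had a 95% counting interval above 1 (1.34 to 5.51). The mean moved from 1.47 ± 0.285 to 2.52 ± 0.608 CPM (SD, n = 4 days), but the fitted log2 fold change of 0.77 (standard error 0.41) did not pass the test, and edgeR's quasi-likelihood test gave it an adjusted p of 0.196. In this comparison 24.3% of the 14264 genes tested were called.

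In EA3 the DMSO levels of H2-DMa were 0.730, 1.09, 0.398 and 1.33 CPM, and the alectinib levels were 0.555, 0.988, 1.30 and 0.751 CPM. The groups overlapped and alectinib was higher on 1 of 4 days, day 3, when the DMSO library had 3 counts. Fitted log2 fold changes of H2-DMa were -0.04 in EA1 (95% interval -0.96 to 0.89) and 0.04 in EA3 (-0.95 to 1.02). Ordered by mean level, EA2 with alectinib stood first at 2.52 CPM and EA2 with DMSO next at 1.47. Then came EA1 with DMSO at 1.24 ± 0.341 CPM and EA1 with alectinib. Last stood EA3 with alectinib at 0.899 ± 0.322 CPM and EA3 with DMSO at 0.887 ± 0.410 CPM. EA2 with alectinib did not overlap its neighbor in this order, and from EA2 with DMSO downward the ranges of neighbors overlapped.

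Cd74, the invariant chain, had 178 counts in all and 140 of them came from EA3. It lies on chromosome 18 from 60803848 to 60812652. In EA1 its DMSO counts on days 1, 2, 3 and 5 were 0, 0, 3 and 2, and its alectinib counts 3, 1, 3 and 4. In EA2 the DMSO counts were 0, 0, 3 and 1 and the alectinib counts 9, 2, 7 and 0. In both lines the treatments overlapped, and the 9 and 7 counts of EA2 with alectinib on days 1 and 3 were the highest there.

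EA3 was the line with the most Cd74. Its DMSO libraries had 2, 2, 9 and 12 counts on days 1, 2, 3 and 5, or 0.182, 0.242, 1.195 and 2.00 CPM. The alectinib libraries had 10, 16, 42 and 47 counts, or 0.925, 1.76, 3.91 and 5.04 CPM. Alectinib was higher than DMSO of the same day on 4 of 4 days, while the groups as a whole overlapped. The level was higher on the later days in both treatments. The daily ratios were 5.07 (95% counting interval 1.08 to 47.6), 7.27 (1.71 to 65.2), 3.27 (1.57 to 7.64) and 2.52 (1.32 to 5.22). Each interval lay above 1.

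**Figure D2:**
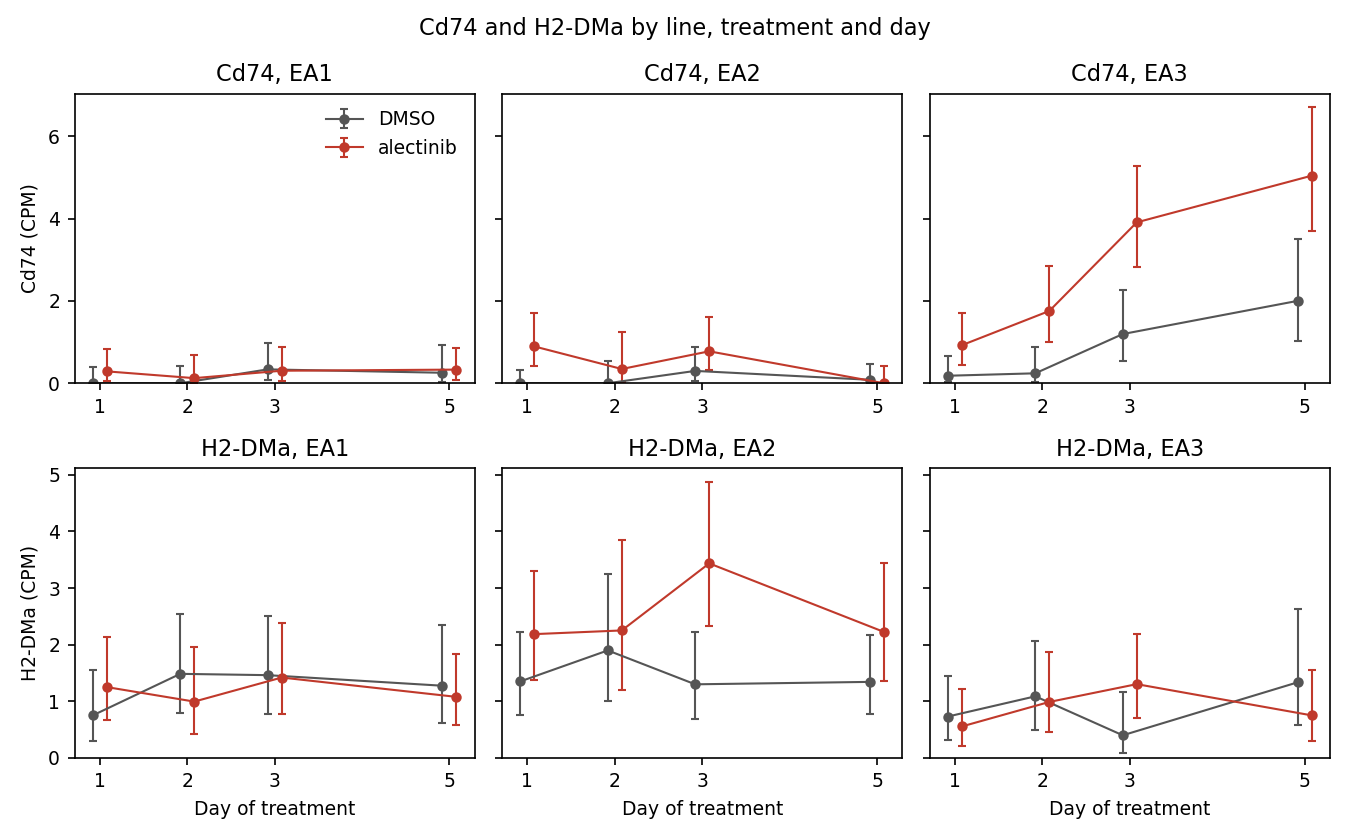
Levels of Cd74 (top) and H2-DMa (bottom) in CPM against the day of treatment in EA1, EA2 and EA3, with DMSO in gray and alectinib in red; each point is 1 library and bars are exact 95% Poisson intervals, which cover counting error only. Cd74 is at most 0.894 CPM in EA1 and EA2 and reaches 5.04 CPM in EA3 with alectinib on day 5, and H2-DMa lies between 0.398 and 3.44 CPM.

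Alectinib was compared with DMSO in 1 fit over the 24 libraries with a block for each pair of line and day, and 2 of the 8 members, Cd74 and H2-DMa, passed its filter on low counts. Of these, only Cd74 in EA3 was called, in a comparison that called 32.3% of the genes tested. Its log2 fold change was 1.89 (standard error 0.65, 95% interval 0.50 to 3.29), with 0.038 as the adjusted p from edgeR. Cd74 passed the filter through libraries of EA3, where it is highest, so that passing the filter was not independent of this call. Without a filter, 6 members had any count to test and Cd74 in EA3 was again the only call, with a log2 fold change of 1.89 and an adjusted p of 0.0199 by edgeR. The call was lost without the replicate block (1.74, adjusted p = 0.107 by edgeR) and when any 1 day was left out. Without day 1, day 2, day 3 or day 5 the log2 fold change was 1.85, 1.66, 2.01 or 2.19, and edgeR's adjusted p-values were 0.0631, 0.115, 0.116 and 0.0654.

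For Cd74 in EA1 the fitted change was 0.93 on the log2 scale (95% interval -1.08 to 2.95, adjusted p = 0.461 by edgeR), where 33.8% of genes were called. In EA2 it was 2.16 (0.11 to 4.2, adjusted p = 0.119 by edgeR). The counts in these lines are mostly at or under the floor, so these values depend on very few reads. With 1 day left out they ran from 0.46 to 1.61 in EA1 and from 1.23 to 2.91 in EA2. A test of the alectinib effect between the 3 lines called 7.05% of genes and neither member, with an adjusted p of 0.790 for Cd74 and 0.544 for H2-DMa by edgeR. The effect on Cd74 in EA3 minus that in EA1 was 0.96 on the log2 scale (-1.84 to 3.76) and minus that in EA2 it was -0.26 (-2.04 to 1.52), so a difference between the lines of several fold in either direction lies within these intervals.

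The change of the alectinib effect with time was fitted as a slope per doubling of days. It called 0.021% of genes in EA1, 0% in EA2 and 0.0631% in EA3, which are 3, 0 and 9 genes, and neither member was among them by edgeR. DESeq2 called 246, 61 and 342 genes, again without a member. Of the members, Cd74 in EA2 alone had an unadjusted p under 0.05 in this test by edgeR, with a slope of -3.94 per doubling of days (95% interval -6.88 to -1.0, adjusted p = 0.672), from the counts of 9, 2, 7 and 0 given above. For Cd74 in EA3 the slope was -0.51 (-1.94 to 0.91).

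Between the lines in DMSO, H2-DMa was the one member tested. Its log2 difference was 0.25 for EA2 against EA1, -0.50 for EA3 against EA1 and -0.76 for EA3 against EA2. With 1 day left out these ran from 0.09 to 0.42, from -0.74 to -0.16 and from -1.06 to -0.59. None of the 3 differences passed, the adjusted p-values being 0.647, 0.404 and 0.181 by edgeR with no unadjusted p under 0.05. DESeq2 called none either, while edgeR called 40.8%, 32.6% and 36.5% of 12886 genes. Cd74 did not pass the filter in DMSO alone. Tested without a filter, it was 3.14 higher on the log2 scale in EA3 than in EA2 (95% interval 1.12 to 5.16, adjusted p = 0.0152 by edgeR) and 2.61 higher than in EA1 (adjusted p = 0.0543). By mean level, EA3 with alectinib held 2.91 ± 1.90 CPM of Cd74, EA3 with DMSO 0.905 ± 0.866 and EA2 with alectinib 0.504 ± 0.410 CPM (SD, n = 4 days). EA1 with alectinib followed at 0.262 ± 0.0936 CPM, EA1 with DMSO at 0.148 ± 0.174 and EA2 with DMSO at 0.0960 ± 0.142. The ranges of neighbors in this order overlapped throughout.

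Markers of other cells were examined beside these counts, and in bulk RNA fewer cells of a type and less RNA per cell cannot be told apart. Of 15 leukocyte markers, 5 exceeded the floor in any EA3 alectinib library and 3 in any EA3 DMSO library, with summed levels of 6.25 to 13.07 CPM in alectinib and 2.67 to 13.62 CPM in DMSO. The leukocyte gene Ptprc had at most 4 counts in any of the 24 libraries, and Tyrobp and C1qa had 0 in all. Csf1r, the receptor for macrophage growth factor, had 8, 3, 20 and 9 counts in EA3 with DMSO and 27, 23, 73 and 17 with alectinib on days 1, 2, 3 and 5, against at most 6 in the other lines. Like Cd74 it was higher with alectinib on 4 of 4 days, but it was lower on day 5 than on day 3, where Cd74 was higher. Lyz2, the lysozyme of macrophages and also of alveolar type 2 cells, had 0 counts in each EA3 DMSO library and 0, 0, 4 and 10 with alectinib, so that it was highest on day 5, as Cd74 was. Flt3, a receptor of blood progenitors and dendritic cells, had 2, 8, 39 and 23 counts in EA3 with DMSO and 5, 3, 3 and 1 with alectinib. It was thus lower with alectinib on 3 of 4 days. The other two over the floor in EA3 were Zbtb46, with 16 to 41 counts in DMSO and 29 to 49 with alectinib, and Fcer1g, with 0, 3, 2 and 0 counts in DMSO and 4, 0, 4 and 4 with alectinib. The part of these markers in the Cd74 result was not tested.

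Of 10 alveolar type 2 markers, 5 exceeded the floor in EA3 with each treatment, but not the same 5. With alectinib they were Abca3, Lpcat1, Sftpd, Slc34a2 and Nkx2-1. In DMSO, Slc34a2 and Nkx2-1 were not over it, and some of Sftpb, Lamp3 and Napsa were. None of those 3 exceeded it in EA3 with alectinib, and they had at most 6, 4 and 10 counts in any of the 24 libraries. The summed level of the 10 markers was 100.4 to 141.3 CPM in DMSO and 177.9 to 300.5 CPM in alectinib. Most of that sum came from Abca3 and Lpcat1, which had 2254 and 2153 counts over the EA3 DMSO libraries and 4893 and 2836 over the alectinib libraries, and which were over the floor in all 24 libraries. The defining marker Sftpa1 was at 0 in all 24 libraries and Sftpc had at most 1 count. Slc34a2 had 0, 0, 0 and 1 counts in EA3 DMSO and 3, 8, 3 and 325 in alectinib. Sftpd, the gene of surfactant protein D, was at 0 in EA1 and EA2 and had 0, 3, 0 and 35 counts in EA3 with DMSO and 4, 4, 2 and 80 with alectinib. Nkx2-1, a transcription factor of lung epithelium, had 7 counts in EA3 with alectinib on day 5 and 0 in the other EA3 libraries of days 1 to 5. Both day 5 libraries of EA3 thus stood apart in Sftpd, and they held the highest Cd74 counts of their treatments, 12 and 47. Without day 5 the fold change of Cd74 was 2.19 on the log2 scale and was not called, as given above. Of 8 fibroblast markers, 6 exceeded the floor in EA3 alectinib and 3 in EA3 DMSO, with 918 to 2529 counts summed over the list in alectinib and 62 to 225 in DMSO, and none of the 8 was at 0 in all 24 libraries. Fibroblast sums were also higher with alectinib in EA1 (124.5 to 486.1 against 8.30 to 43.6 CPM) and EA2 (119.0 to 255.2 against 61.8 to 74.6 CPM). The part of either list in the Cd74 result was not tested.

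The genes whose levels were most like those of Cd74 over the 24 libraries, by Pearson correlation of log2 CPM, were Cnih2 (0.882), Ifnar2 (0.874) and Igf2r (0.870). All 3 were highest in EA3 with alectinib on day 5, when Cnih2 had 343 counts against 22 in DMSO. For H2-DMa they were Sin3b (0.813), Ppp3ca (0.801) and Ube2a (0.799). These are descriptions over libraries that share lines and days, and no test was made.

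**Figure D3:**
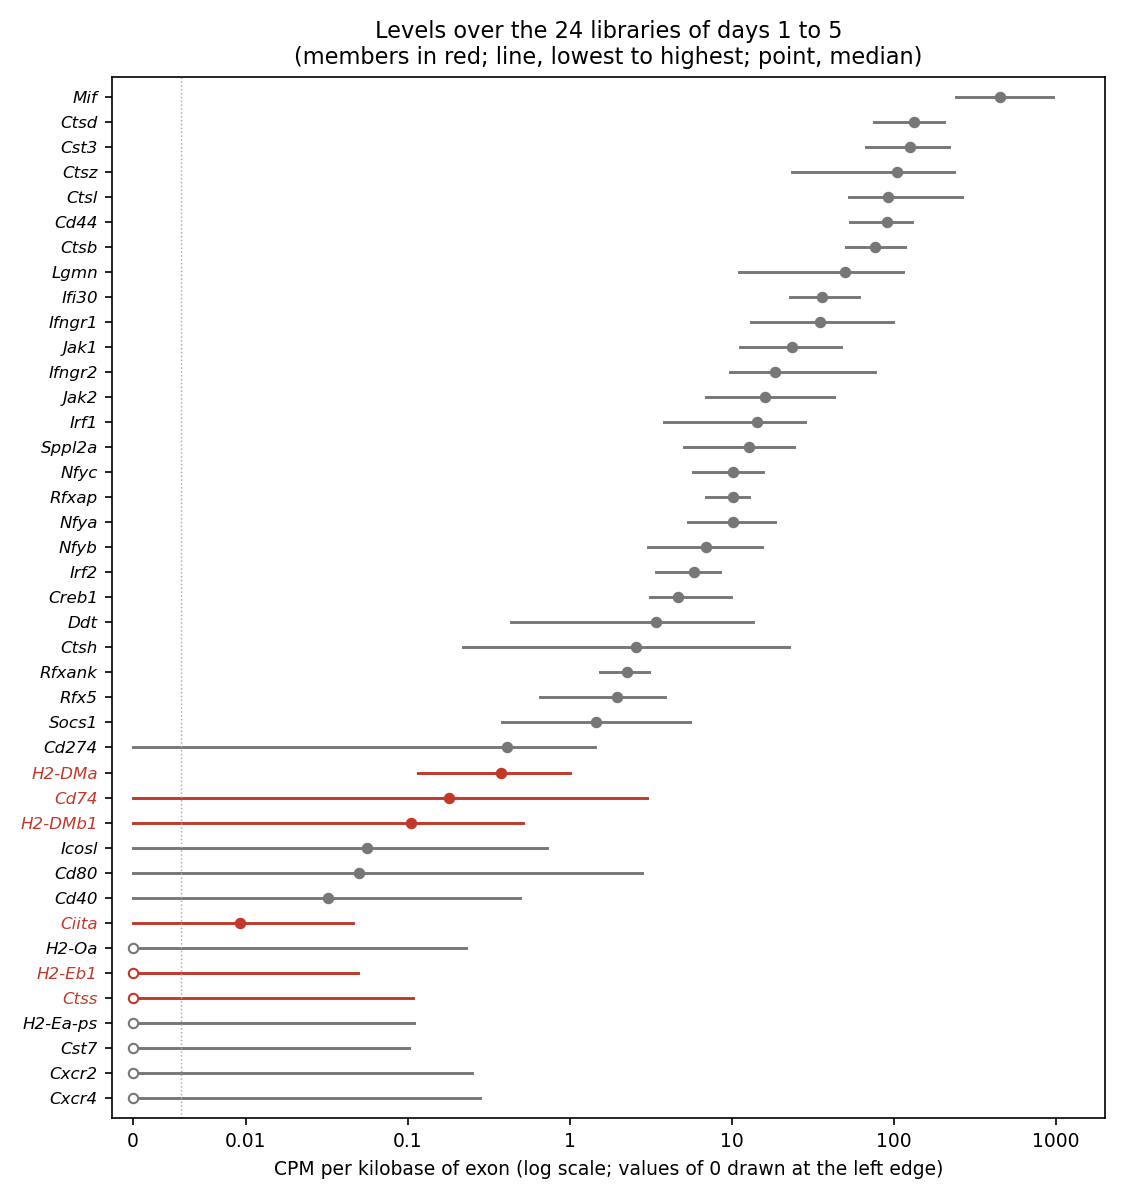
Levels of the members (red) and of the other pathway genes (gray) in CPM per kilobase of exon on a log axis, with a line from the lowest to the highest of the 24 libraries, a point at the median and values of 0 drawn at the left edge; genes at 0 in all 24 libraries are left out. The medians of the members lie at or below 0.377, whereas Mif and the lysosomal proteases Ctsd, Ctsl and Ctsb lie at 76.5 or above.

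Of the other genes of the pathway, 41 were found in the table and 28 passed the filter. The rest include H2-Eb2, H2-DMb2, H2-Ob, Ifng, Cd86 and Pdcd1lg2, which were at 0 in all 24 libraries, and H2-Ea-ps, Cst7, H2-Oa and Cxcr4, which never exceeded the floor. In EA1, 13 of the 28 were called (46.4%, against 33.8% of all genes), 9 higher and 4 lower with alectinib. In EA2, 8 were called (28.6%, against 24.3%), 3 higher and 5 lower, and in EA3, 11 were called (39.3%, against 32.3%), 5 higher and 6 lower. The median log2 fold change of the 28 was 0.09, -0.11 and 0.06 in EA1, EA2 and EA3, beside 0.026, 0 and 0.037 for all genes.

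**Figure D4:**
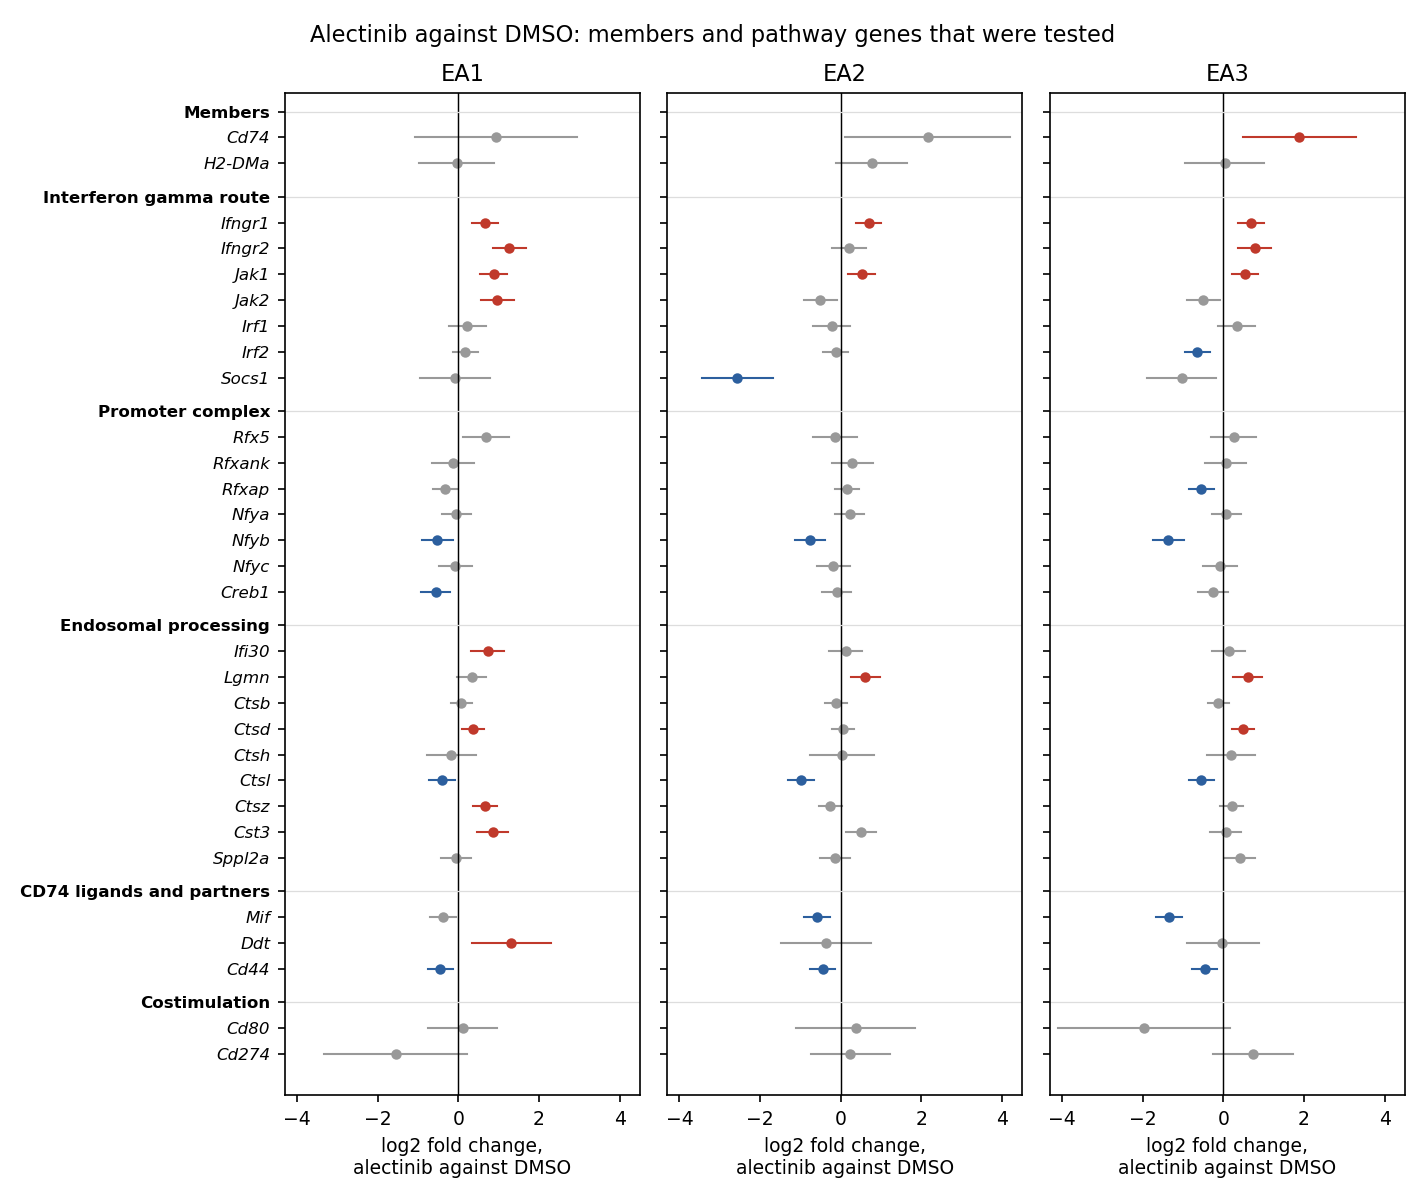
Log2 fold change of alectinib against DMSO with its 95% interval for the 2 members and 28 other pathway genes that were tested, by line; red marks genes called higher, blue genes called lower and gray genes not called. Ifngr1 and Jak1 are higher and Nfyb, Ctsl and Cd44 lower in all 3 lines, while Jak2 is higher in EA1 and below 0, without a call, in EA2 and EA3.

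The interferon gamma route leads from the cytokine to Ciita, and 7 of the 8 genes listed for it were tested. The exception was the cytokine gene Ifng itself, at 0 counts in all 24 libraries. In EA1, 4 of the 7 rose, Ifngr1, Ifngr2, Jak1 and Jak2, or 57.1% against 33.8% of all genes, and the list's median log2 fold change was 0.66. In EA3, Ifngr1, Ifngr2 and Jak1 rose and Irf2, a repressor and activator of interferon-responsive genes, fell by 0.64 on the log2 scale (57.1% called against 32.3%, median of the list 0.33). In EA2, Ifngr1 and Jak1 rose and Socs1 fell (42.9% against 24.3%, median -0.12).

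Ifngr1, the ligand-binding chain of the interferon gamma receptor, rose by 0.66, 0.69 and 0.69 on the log2 scale in EA1, EA2 and EA3, on 4 of 4 days in each. These calls held under every alternative analysis. Jak1, a kinase bound to that receptor chain, rose by 0.88, 0.52 and 0.54, also on 4 of 4 days in each line. The calls of Jak1 in EA2 and EA3 were lost in several alternatives, with adjusted p-values of up to 0.111 and 0.152 by edgeR when a day was left out. Ifngr2, the second receptor chain, rose by 1.27 in EA1 and 0.78 in EA3, whereas the EA2 value was 0.20, not called.

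Jak2 encodes the kinase of the second receptor chain. Its mean level rose from 45.9 ± 6.16 to 90.3 ± 14.0 CPM in EA1, by 0.97 on the log2 scale and on 4 of 4 days. In EA2 the log2 fold change was -0.51 and in EA3 -0.50, neither of them called. The test between the lines gave an adjusted p of 0.00665 by edgeR, which rose to 0.0657 without day 3. Socs1, a feedback inhibitor of JAK kinases, fell in EA2 from 14.0 ± 1.39 to 2.48 ± 1.11 CPM, by 2.57 on the log2 scale and on 4 of 4 days. In EA1 and EA3 its log2 fold changes were -0.07 and -1.03, not called, and the test between the lines gave an adjusted p of 0.0394 by edgeR, which rose to between 0.161 and 0.209 without day 2, day 3 or day 5. Irf1, an activator of the Ciita promoter, was not called in any line.

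All 7 genes of the promoter complex were present in all 24 libraries. Rfx5, Rfxank and Rfxap encode the RFX factor, Nfya, Nfyb and Nfyc the NF-Y factor, and Creb1 the CREB factor. Of the 7, 2 fell in EA1 (Nfyb and Creb1), 1 in EA2 (Nfyb) and 2 in EA3 (Nfyb and Rfxap), and none rose. These shares of 28.6%, 14.3% and 28.6% lie below the 33.8%, 24.3% and 32.3% of all genes called. Their median log2 fold changes were -0.14, -0.10 and -0.08.

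Nfyb, the subunit of NF-Y that pairs with NFYC in a histone-like fold, had mean levels in DMSO of 40.6 ± 4.92, 50.8 ± 4.59 and 58.2 ± 13.8 CPM in EA1, EA2 and EA3 (SD, n = 4 days). With alectinib they were 28.4 ± 4.48, 30.1 ± 1.21 and 22.7 ± 5.10 CPM. The groups did not overlap in any line. Its log2 fold changes were -0.52, -0.75 and -1.36, lower on 4 of 4 days in each line. The adjusted p-values were 0.0347, 0.00646 and 0.00012 by edgeR, and the call in EA1 was lost in 6 of its alternatives. Rfxap fell by 0.54 in EA3 and Creb1 by 0.56 in EA1 on the log2 scale, while Rfx5, Rfxank, Nfya and Nfyc were not called in any line. The call of Rfxap was lost in 4 and that of Creb1 in 2 of 12 alternatives. Rfx5 in EA1 reached 0.68 on the log2 scale (adjusted p = 0.0641 by edgeR). It shares 26.8% of its exon bases with B230398E01Rik on the other strand, and Rfxank 33.8% with Nr2c2ap.

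Of the 10 genes of endosomal processing, 9 were tested. In EA1, Cst3, Ctsd, Ctsz and Ifi30 rose and Ctsl fell, in EA2 Lgmn rose and Ctsl fell, and in EA3 Ctsd and Lgmn rose and Ctsl fell. These shares of 55.6%, 22.2% and 33.3% stand beside 33.8%, 24.3% and 32.3% of all genes, so that EA2 and EA3 were close to the background. The list's medians were 0.34, 0.04 and 0.19 on the log2 scale. Cathepsin L can trim CD74 in some cells without cathepsin S, and trimming was not measured here. Its gene Ctsl fell by 0.41, 0.99 and 0.54 on the log2 scale in EA1, EA2 and EA3, on 4 of 4 days in each. Its mean in EA2 was 1407 ± 213.8 CPM in DMSO and 710.8 ± 131.4 CPM in alectinib. Ctsd lost its call in 8 of 12 alternatives in EA1 and in 5 in EA3, Ctsl in EA3 in 5, Ifi30 in EA1 in 4, and Lgmn in 3 in each of EA2 and EA3. In EA1 the call of Ctsl was lost in 11 of 12 alternatives, all but DESeq2, with edgeR's adjusted p-values between 0.0569 and 0.231. Ctsd shares 34.4% of its exon bases with Gm49369 on the same strand, and Ctsl shares 6.1% with Gm49230 on the same strand and 26.8% with Gm47123 on the other, so their counts are uncertain.

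Lgmn, an asparagine-specific endopeptidase, rose by 0.61 in both EA2 and EA3 on the log2 scale. Ifi30, the thiol reductase of the endosome that is itself an interferon-induced gene, rose by 0.73 in EA1. Ctsz rose by 0.66 in EA1 and had log2 fold changes of -0.26 and 0.21 in EA2 and EA3. The test between the lines gave an adjusted p of 0.026 by edgeR, which rose to between 0.0615 and 0.15 when a day was left out, and of the pairs of lines only EA2 against EA1 was called. Ctsb, Ctsh and Sppl2a were not called in any line.

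CD74 also acts at the cell surface as a receptor for MIF with CD44 as its partner. Mif, the ligand gene, had the highest median of the pathway genes measured, 452.7 CPM per kilobase of exon. Mif fell by 0.59 in EA2 and by 1.34 in EA3 on the log2 scale, on 4 of 4 days in each, whereas the EA1 value was -0.37, not called. The test between the lines gave an adjusted p of 0.0279 by edgeR, which rose to between 0.0794 and 0.159 when a day was left out. Cd44 fell by 0.45, 0.44 and 0.46 in the 3 lines, and these calls were lost in 7, 5 and 6 of 12 alternative analyses. Ddt, a second ligand of CD74, rose by 1.32 in EA1 and shares 30% of its exon bases with Gm20441 on the same strand. Its call was lost in 3 of 11 alternatives.

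Among 6 genes listed for costimulation, which include inhibitory ligands and a receptor of the presenting cell, Cd86 and Pdcd1lg2 were at 0 in all 24 libraries. Cd80, a costimulatory ligand, and Cd274, the gene of the inhibitory ligand PD-L1, were tested. Neither was called with alectinib in any line by edgeR, with no unadjusted p under 0.05. Mean Cd80 in DMSO and alectinib was only 0.189 and 0.232 CPM in EA2, and 0.128 and 0.0268 CPM in EA3. Mean Cd274 in EA1 was 0.233 and 0.0701 CPM. At these levels, near the floor, a change was not detectable. The result thus bears only on Cd80 in EA1 and on Cd274 in EA2 and EA3. Cd40 and Icosl did not pass the filter and were over the floor in 6 and 9 libraries.

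In DMSO, 15 of the 28 pathway genes were called for EA2 against EA1 (53.6%, against 40.8% of all genes), 17 for EA3 against EA1 (60.7%, against 32.6%) and 10 for EA3 against EA2 (35.7%, against 36.5%). The last share is close to the background. Ctsh, an aminopeptidase of lysosomes and of surfactant-producing lung cells, had 14.4 ± 7.69 CPM in EA1, 1.92 ± 0.715 in EA2 and 51.8 ± 36.6 CPM in EA3. Its log2 difference was 4.56 between EA3 and EA2 (standard error 0.35, adjusted p = 1.26e-06 by edgeR). Jak2 was 1.85 higher and Irf1 1.29 higher in EA3 than in EA1 on the log2 scale, and Rfx5 was 1.67 higher in EA2 than in EA1. Across these differences between the lines, Ciita stayed at no more than 3 counts and H2-Aa and H2-Ab1 at 0 in every library.

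The 2 further libraries labelled EA3 day 7 entered no comparison. Their log2 levels correlated more with EA2 of the same treatment (0.967 in DMSO and 0.986 in alectinib over 14335 genes) than with EA3 (0.887 and 0.876), which goes against their label. In the library labelled DMSO, Cd74 had 3 counts and H2-DMa 20, and in that labelled alectinib they had 6 and 45. Ciita had 1 count in each, H2-DMb1 1 in each, H2-Aa 1 in the alectinib library, and H2-Ab1, H2-Eb1 and Ctss had 0 in both.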

How the data were processed

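RNA from cultured EA1, EA2 and EA3 cells was sequenced from poly(A)-selected, stranded libraries as 2x151 bp reads. The authors checked reads with FastQC, trimmed adapters with bbduk, mapped them to mm10 with STAR and deposited raw counts per gene from STAR's internal counter, without normalization. The annotation release and the strand setting are not given in the sources used here. In the table, 24 of 55415 symbols are date numbers that name no gene (0.129% to 0.201% of a library). These lines entered neither library sizes nor tests, and the genes whose names they replace were not analysed here. Gene positions and exon lengths are from GENCODE M21.

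The counts were fitted with edgeR 4.0.16 (TMM, filterByExpr by line and treatment, robust quasi-likelihood test) and DESeq2 1.42.0 under R 4.3.3, and Python 3.11.15 made the summaries. One fit held the 24 libraries of days 1 to 5 with 12 line and day blocks, and another the 12 DMSO libraries. Nothing states that days came from separate cultures, so p-values measure the spread between days, which may be technical. The numbers shared by DMSO and alectinib libraries are days of culture, and their deviations from the group means correlated between -0.300 and 0.549, over 0.1 in 6 of 12 pairs. p-values were adjusted over all genes tested (Benjamini-Hochberg, threshold 0.05), and calculations were tested on simulated counts. Daily ratios use exact conditional binomial intervals, and bounds use the floor of 3 counts per library. Correlations used log2 CPM with a prior count of 2. Promoter windows are RefSeq's.

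The members and the gene lists were chosen with earlier results of these data known. A listed pathway gene and the host genotype are not reported here, and the list counts leave that gene out. The genes named are the members, the listed pathway genes and the 3 genes most like each tested member by correlation. Further genes (Brd2, overlapping genes and markers) are named only for values that touch a result. Alternatives were DESeq2, its size factors, library size alone, no filter, at least 10 counts in every library, no replicate block, each line alone, all 26 libraries and each day left out.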

Additional observations from a re-analysis of the deposited data

Results flagged for a closer look

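Each of 36 sets of 4 days (Cd74, H2-DMa, Jak2, Socs1, Nfyb and Mif by line and treatment) was examined for a day far from the other three, by Dixon's ratio of the gap to the range at the 95% level. Chance gives about 1 in 20, and 3 were found, all in EA2. H2-DMa was 1.90 CPM in DMSO on day 2 (others 1.30 to 1.35) and 3.44 CPM in alectinib on day 3 (others 2.19 to 2.25). Mif was 642.4 CPM in DMSO on day 2 (others 492.1 to 512.4).

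For 4 pathway genes edgeR's quasi-likelihood test with 2 degrees of freedom called a difference in the alectinib effect between the 3 lines, with adjusted p-values of 0.00665 for Jak2, 0.026 for Ctsz, 0.0279 for Mif and 0.0394 for Socs1. Each call was lost when at least 1 day was left out, with adjusted p-values of up to 0.0657, 0.15, 0.159 and 0.209. No member was among them.

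In the library labelled EA3 alectinib day 7, which entered no comparison, H2-DMa reached 3.91 CPM by library size alone, above the highest of the DMSO libraries on the same scale, which was the library labelled EA3 DMSO day 7 (2.60 CPM). The library labelled alectinib resembled EA2 more than EA3 in its other genes. In EA2 with alectinib H2-DMa reached 3.44 CPM on day 3 with TMM scaling.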

How the results depend on the processing

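The call of Cd74 in EA3 held with DESeq2, its size factors, library size alone, no filter, EA3 fitted alone and all 26 libraries (log2 fold changes of 1.66 to 2.05), and Cd74 was not tested with at least 10 counts in every library. It was lost with no replicate block (1.74, adjusted p = 0.107 by edgeR) and when a day was left out (1.66 to 2.19). Dropping the replicate block changed no other call of a member. It ended the pathway calls of Ifngr2, Lgmn, Ctsl and Ctsd in EA3, Lgmn and Cd44 in EA2, Ctsl and Ctsd in EA1, and those of Mif and Ctsz between the lines (adjusted p = 0.081 and 0.119 by edgeR). H2-DMa was called in none of its alternatives, and its direction turned in EA1 with library size alone (0.09) and when days were left out (-0.24 to 0.10), in EA3 when days were left out (-0.43 to 0.36), and for its slopes in EA1 (-0.56 to 0.20) and EA3 (-0.60 to 1.16). The cause was not tested. Of the 32 named pathway calls of alectinib against DMSO within a line, 13 held under every alternative, and none turned direction in the 383 values computed, of which 84 lost the call. Outside these, the named differences of pathway genes between the lines in DMSO held under every alternative, and the 4 calls of the alectinib effect between the lines were each lost when at least 1 day was left out (adjusted p of 0.0128 to 0.0657 for Jak2 by edgeR).

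Counts of genes called moved by over 1.5 times in these cases. With days left out, they ran from 2796 to 4088 in EA1, 2142 to 2654 in EA2 and 2836 to 3889 in EA3, with the fewest without day 3 in EA1 and EA2 and without day 2 in EA3. Likewise they ran from 211 to 792 between the lines, 2525 to 3975 for EA3 against EA1 in DMSO and 3063 to 4600 for EA3 against EA2. Between the lines, 2698 genes were called with no filter, 1963 by DESeq2 and 398 with all 26 libraries. Slopes over days were called for 51, 21 and 78 genes in EA1, EA2 and EA3 with no filter and for 246, 61 and 342 by DESeq2. With library size alone they were 1 in EA1 and 3 in EA3, with each line alone 0 in EA1 and 3 in EA3, and with all 26 libraries 0 in EA1 and 45 in EA3. With at least 10 counts there were 50 in EA3. Leaving out days gave 0 to 45 in EA1, 0 to 1 in EA2 and 0 to 78 in EA3.

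Depth limits these results: 79.7% of member values lie at or under 3 counts, so changes of Ciita, H2-Eb1, Ctss and the I-A chains below that level could not be seen. The days are 1 library each.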
